A study of Bos taurus with 24 samples.

Results

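The genes described here encode regulators of messenger RNA decay that act on cytokine transcripts. They were chosen by symbol from a list of 8 genes, ZFP36, ZFP36L1, ZFP36L2, ZC3H12A, ZC3H12C, RC3H1, ELAVL1 and KHSRP. Of these, 7 were found among the 27550 annotated gene rows of the count tables, each on a single row, and KHSRP was not analysed here. Expression was measured by RNA-Seq in primary dermal fibroblasts (DF), the connective tissue cells of the skin, grown from shoulder biopsies of 4 Angus (beef) and 4 Holstein (dairy) heifers of like age. Each culture, frozen at the third passage and revived, was exposed to 100 ng/ml of lipopolysaccharide (LPS), which Gram-negative bacteria carry in their outer membrane, and RNA was taken at 0 h (control conditions), 2 h and 8 h, so that 24 samples formed 6 groups of 4. Lysates of duplicate wells had been pooled, and a sample therefore stands for 1 animal at 1 hour. No culture without LPS was sampled at 2 h or 8 h, so time after the challenge and exposure to LPS cannot be told apart.

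Many cytokine messages carry AU-rich elements or short stem-loops in their 3' untranslated region. The zinc finger proteins ZFP36 (tristetraprolin), ZFP36L1 and ZFP36L2 bind AU-rich elements and recruit the CCR4-NOT deadenylase, which shortens the poly(A) tail. ZC3H12A (Regnase-1) is an endonuclease that cuts messages at stem-loops, and ZC3H12C is a relative with the same kind of nuclease domain. RC3H1 (Roquin-1) binds stem-loops and also recruits the deadenylase, while ELAVL1 (HuR) binds AU-rich messages and is best known for stabilising them. Several of these genes are themselves induced by inflammatory signals, which forms a feedback loop.

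Levels are given in CPM, read counts relative to a library size that was adjusted with edgeR's TMM factors. A gene is said to have risen, fallen or differed when its false discovery rate (FDR, Benjamini-Hochberg over all rows tested) was under 0.05 in edgeR's likelihood-ratio test, and to be past the threshold when the fold change was also at least 2 and the mean above 1 CPM. All 7 genes passed the filter on low counts in all 12 comparisons. Counts are per gene span and were not divided by exon length, so levels are compared between samples and not between genes. Summed counts ranged from 51014538 to 104406293 per sample, and 3 counts stood for 0.0287 to 0.0588 CPM, far below the lowest level of any of the 7 genes (2.04 CPM). All 11 fibroblast markers were at or above 1 CPM in each of the 24 samples. The summed level of 7 keratinocyte markers was 0.438 to 0.788 CPM in the Angus samples and 0.686 to 13.8 CPM in the Holstein samples, with KRT1 at 0 throughout. That of 8 leukocyte markers was 2.24 to 5.95 CPM, with CD68 alone reaching 1 CPM. In Holstein this sum was 2.24 to 3.57 CPM at 0 h, 4.75 to 5.84 at 2 h and 3.47 to 5.95 at 8 h, and in Angus 3.57 to 5.52, 5.04 to 5.53 and 4.98 to 5.46 CPM, so in Holstein 0 h and 2 h did not overlap. Its part in the changes after LPS was not tested. The summed level was 2.01 to 5.24 CPM for 5 endothelial markers and 1.49 to 3.48 CPM for 5 melanocyte markers. Reads of the collagen gene COL1A1 had been counted in another way in 4 samples, with 66.2 to 67.1 bases of coverage for each count where the remaining 20 had 111.8 to 119. These were the 0 h cultures of Angus animal 4 and Holstein animals 2 and 4, and the 2 h culture of Angus animal 3. For each of the 7 genes the bases per count of the 4 samples overlapped those of the others. They were 81 to 88.5 for ZC3H12A in all samples. For ZC3H12C the overlap was partial, with 89 to 100.5 in the 4 samples and 84.8 to 93.2 in the remaining 20. Values without the 4 samples are given where they change a call. At 0 h such fits keep only animals 1 and 3 of Holstein, so counting and fewer samples cannot be told apart in them.

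The genes lie on 7 chromosomes of build UMD v3.1. ZC3H12A spans positions 108990070 to 108999453 of chromosome 3 on the minus strand and overlaps no other row, and ZC3H12C spans 20459560 to 20526349 of chromosome 15 on the plus strand. RC3H1 spans 56755282 to 56793090 of chromosome 16 and ELAVL1 17939661 to 17976489 of chromosome 7, both on the minus strand. ZFP36L1 spans 80965358 to 80970846 of chromosome 10 on the minus strand. Overlaps limit the other rows. ZFP36L2, at 25583531 to 25587785 of chromosome 11 on the minus strand, contains LOC100139773 on the plus strand, which covers 24.9% of its span. An interval without a gene symbol, from 25586724 to 25591373, overlaps a further 25% of that span. Its counts were 17.2% to 24.7% of those of the ZFP36L2 row, and those of LOC100139773 were 12.6% to 24.2%. ZFP36, at 49361494 to 49375056 of chromosome 18, shares 78.4% of its span with SAMD4B on the same strand. The SAMD4B row held 106% to 139% of the counts of the ZFP36 row, so the reads of these 2 genes cannot be told apart.

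Following LPS, with the breeds combined, ZC3H12A rose at both hours, ZC3H12C rose less and at both hours, and ZFP36L2 rose at 2 h. At 2 h, 1 of the 7 genes was past the threshold (ZC3H12A) and 3 had an FDR under 0.05. Of the 20157 rows tested at 2 h, 2.82% were past the threshold and 22% had an FDR under 0.05. At 8 h, 1 gene was past the threshold (ZC3H12A) and 2 had an FDR under 0.05, against 1.42% and 12.8% of 20368 rows. The median log2 fold change of the 7 genes was 0.18 at 2 h and 0.17 at 8 h, and that of all rows 0 and -0.01. The 2 h and the 8 h comparison share the 0 h samples.

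ZC3H12A, the endonuclease, changed most. At 0 h its level was 5.25, 4.12, 5.64 and 5.31 CPM in Angus animals 1 to 4, and 6.7, 5.33, 4.68 and 7.51 CPM in Holstein animals 1 to 4. At 2 h the Angus cultures held 21.9, 15.7, 45 and 10.8 CPM and the Holstein cultures 36, 61.9, 29 and 61.5 CPM. Every culture was thus above all 8 cultures of 0 h, with Angus animal 3 the highest of its breed and above 2 Holstein cultures. At 8 h the values were 10.8, 8.79, 15.2 and 5.75 CPM in Angus and 19.2, 24.8, 14.4 and 18 CPM in Holstein. All cultures had come down from 2 h, and Angus animal 4 alone lay within the range of 0 h. The log2 fold change was 2.67 at 2 h (SE 0.30, FDR = 1.18e-14, 6.35-fold) and 1.40 at 8 h (SE 0.24, FDR = 8.89e-07, 2.63-fold). From 2 h to 8 h ZC3H12A fell by 1.26 on the log2 scale (SE 0.35, FDR = 0.00341).

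**Figure D1:**
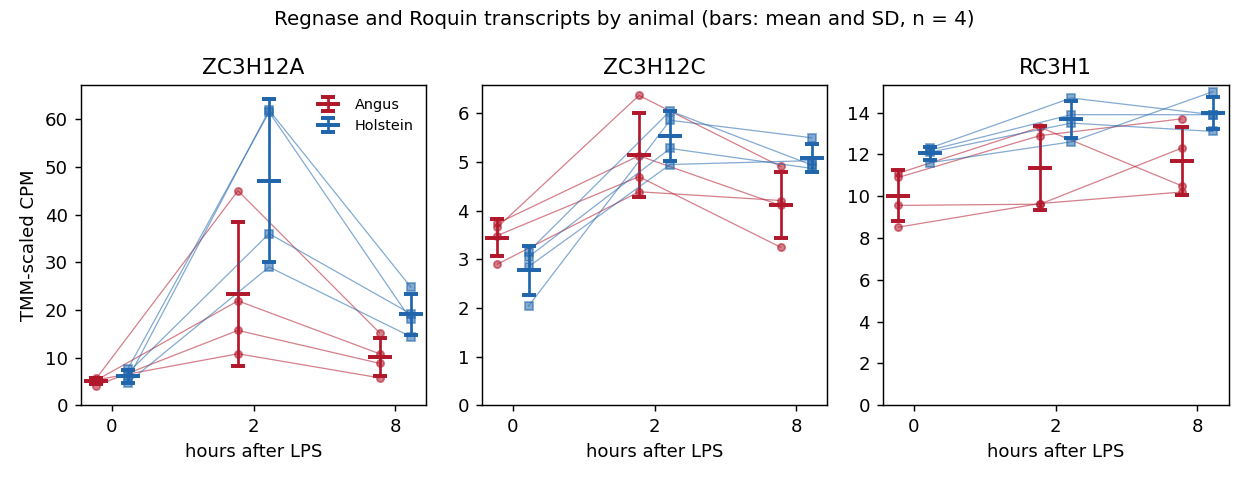
TMM-scaled CPM of ZC3H12A, ZC3H12C and RC3H1 (y axes, each from 0) against hours after LPS (x axis, equally spaced), with thin lines joining the samples of an animal and bars giving the mean and SD of 4 animals per breed. ZC3H12A lay between 4.12 and 7.51 CPM at 0 h and between 10.8 and 61.9 CPM at 2 h, while RC3H1 stayed between 8.52 and 15 CPM.

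The combined values of ZC3H12A kept their call under every alternative processing and without each animal. Within breeds, its log2 fold change at 2 h was 2.21 (SE 0.40, FDR = 4.02e-06) in Angus and 2.96 (SE 0.27, FDR = 4.31e-22) in Holstein. At 8 h it was 1.67 (SE 0.21, FDR = 8.33e-13) in Holstein and 1.01 (SE 0.29, FDR = 0.0182) in Angus. The Angus value at 8 h rested on the choice of test. In the fit blocked on the animal it was 0.94 (FDR = 5.78e-05) and under the fold limit, with the quasi-likelihood F test the FDR was 0.106, in the fit of all 24 samples it was 0.0614 and without the 4 samples 0.0535. It was also lost when Angus animal 1 (0.998, FDR = 0.218), 2 (0.98, FDR = 0.181) or 3 (0.799, FDR = 0.0943) was left out.

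ZC3H12C, the related nuclease, rose by a smaller amount. Its level at 0 h was 3.74, 2.9, 3.66 and 3.49 CPM in Angus and 3.05, 3.16, 2.85 and 2.04 CPM in Holstein. At 2 h it was 5.13, 4.39, 6.37 and 4.7 CPM in Angus and 5.28, 6.05, 4.95 and 5.86 CPM in Holstein, so that no sample of 2 h overlapped those of 0 h. At 8 h it was 4.11, 4.21, 4.91 and 3.25 CPM in Angus and 4.87, 4.94, 5.03 and 5.5 CPM in Holstein. The Holstein cultures remained above all samples of 0 h, whereas Angus animal 4 was back below its own level at 0 h. The log2 fold change was 0.78 at 2 h (SE 0.13, FDR = 1.90e-07) and 0.57 at 8 h (SE 0.14, FDR = 0.001), under the fold limit at both hours. In Holstein it was 0.99 (SE 0.18, FDR = 1.04e-06) at 2 h and 0.88 (SE 0.17, FDR = 1.36e-05) at 8 h. In Angus it was 0.59 (SE 0.20, FDR = 0.0255) at 2 h and 0.27 (SE 0.19, FDR = 0.614) at 8 h. The Angus value at 2 h was not called without any single Angus animal (0.495 to 0.639) or without the 4 samples (FDR = 0.164), and with no filter on low counts it was 0.584 (FDR = 0.0692). Between 2 h and 8 h ZC3H12C changed by -0.20 (SE 0.13, FDR = 0.264), and with the animal as a block it fell by 0.21 (FDR = 0.0273). An interval with no gene symbol that adjoins ZC3H12C, from 20526350 to 20539797, also rose at 2 h, by 1.40 (SE 0.14, FDR = 4.43e-20), from 3.24 to 4.96 CPM in the 8 samples of 0 h to between 7.82 and 13.8 CPM. This interval and that beside RC3H1 were singled out after their values were seen.

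Of the AU-rich element binding genes, ZFP36L2 and ZFP36L1 changed at 2 h in different breeds. ZFP36L2 at 0 h was at 62.9, 48.6, 45.9 and 60.8 CPM in Angus and at 56.1, 38.6, 49.6 and 64.5 CPM in Holstein. At 2 h the Angus cultures held 73.5, 72.5, 66.6 and 50.7 CPM and the Holstein cultures 137, 112, 113 and 138 CPM. All 4 Holstein cultures at 2 h were above every other sample of the series, while the Angus cultures overlapped those of 0 h. At 8 h the levels were 65, 46.6, 39.7 and 59.5 CPM in Angus and 40.6, 31.6, 39.6 and 41.5 CPM in Holstein. The Holstein cultures had each dropped below their own level at 0 h, and their range at 8 h overlapped that of Angus. In Holstein, the log2 fold change at 2 h was 1.26 (SE 0.16, FDR = 1.57e-12, 2.39-fold) and past the threshold. In Angus it was 0.28 (SE 0.18, 95% interval -0.07 to 0.63, FDR = 0.363). With the breeds combined it was 0.84 (SE 0.20, FDR = 3.34e-04) at 2 h, and from 2 h to 8 h ZFP36L2 fell by 1.06 (SE 0.21, FDR = 1.25e-05). At 8 h against 0 h it changed by -0.44 (SE 0.16, FDR = 0.0513) in Holstein and by -0.23 (FDR = 0.362) with the breeds combined. The blocked fit gave a fall of 0.42 (FDR = 6.15e-07) in Holstein and of 0.24 (FDR = 0.00874) with the breeds combined. The Holstein value also passed without Holstein animal 2 (-0.486, FDR = 0.00495), without the 4 samples (-0.446, FDR = 0.0377), with DESeq2's size factors (FDR = 0.0483) or Wald test (FDR = 0.0331), and on rows with a symbol only (FDR = 0.0369).

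ZFP36L1, of the same family, fell in Angus. Its level at 0 h was 86.9, 68.4, 86.9 and 69.9 CPM in Angus and 77.5, 78.2, 73.6 and 64.7 CPM in Holstein. At 2 h it was 44.3, 40.4, 60.6 and 33.9 CPM in Angus and 68.9, 92, 57.9 and 69.5 CPM in Holstein. The Angus cultures at 2 h were all below every Angus sample of 0 h, whereas the Holstein cultures spread to both sides of their range at 0 h. At 8 h Angus was back at 84.4, 70.4, 108 and 63 CPM and Holstein was at 87.1, 107, 83.3 and 76.5 CPM, so the groups of 8 h overlapped those of 0 h. In Angus, ZFP36L1 fell by 0.79 at 2 h (SE 0.20, FDR = 0.00135). Without Angus animal 1 the value was -0.73 (FDR = 0.0677), and without the 4 samples it was -1.03 (FDR = 5.16e-07) and past the threshold. In Holstein the change was -0.03 (SE 0.15, 95% interval -0.32 to 0.25, FDR = 0.959). With the breeds combined it was -0.37 (SE 0.17, FDR = 0.121) at 2 h, which passed with the animal as a block (-0.43, FDR = 0.00586), in the fit of all 24 samples (-0.413, FDR = 0.0071) and without Holstein animal 2 (-0.487, FDR = 0.0197). Between 2 h and 8 h it rose by 0.55 (SE 0.19, FDR = 0.0191), a call lost without Angus animal 1 (0.503, FDR = 0.0623), Angus animal 3 (0.494, FDR = 0.0794) or Holstein animal 3 (0.544, FDR = 0.0571). At 8 h against 0 h it changed by 0.17 (FDR = 0.386) with the breeds combined and by 0.28 (FDR = 0.128) in Holstein, and with the animal as a block it rose by 0.16 (FDR = 0.0469) and by 0.27 (FDR = 3e-04).

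**Figure D2:**
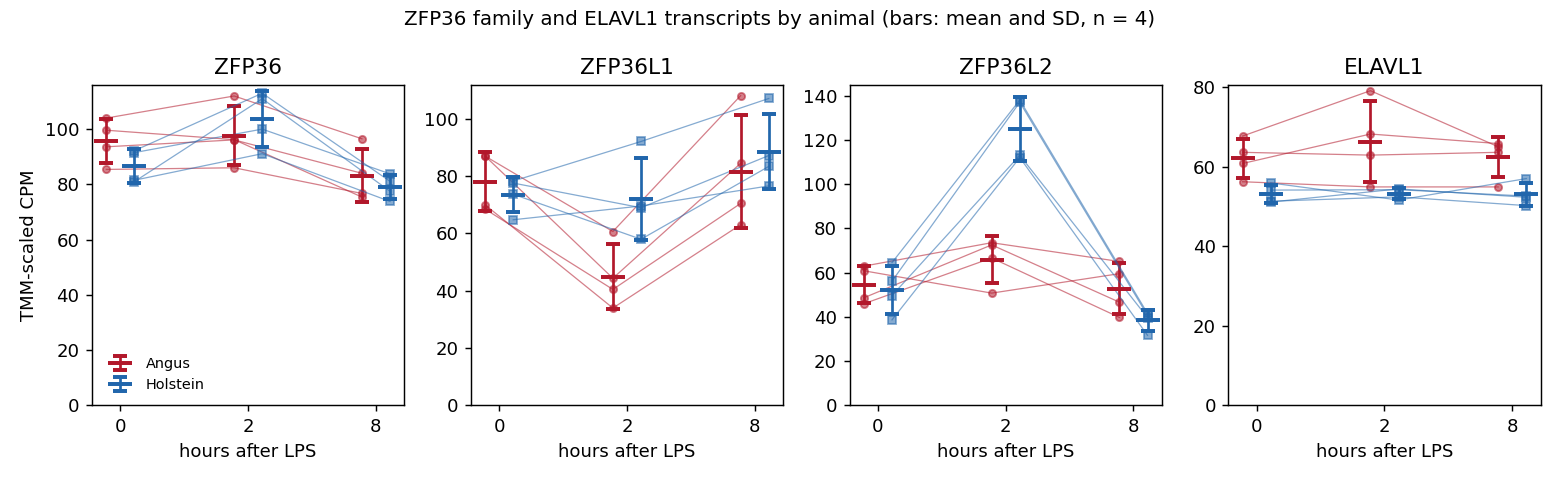
TMM-scaled CPM of ZFP36, ZFP36L1, ZFP36L2 and ELAVL1 (y axes, each from 0) against hours after LPS (x axis, equally spaced), with thin lines joining the samples of an animal and bars giving the mean and SD of 4 animals per breed. At 2 h ZFP36L2 was at 112 to 138 CPM in Holstein and 50.7 to 73.5 CPM in Angus, and ZFP36L1 reached its lowest levels in Angus, 33.9 to 60.6 CPM.

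The ZFP36 row, the namesake of the family, changed little. It ranged from 85.4 to 104 CPM in Angus and from 81 to 92.2 CPM in Holstein at 0 h, from 86 to 112 and from 91.1 to 113 CPM at 2 h, and from 75.4 to 96.5 and from 73.8 to 83.8 CPM at 8 h. Its log2 fold change was 0.15 at 2 h (SE 0.09, 95% interval -0.02 to 0.32, FDR = 0.247) and -0.16 at 8 h (SE 0.08, FDR = 0.173). From 2 h to 8 h it fell by 0.30 (SE 0.08, FDR = 0.00262), and it was lower in all 8 animals, a direction shared by 17.8% of all rows. SAMD4B, with which it shares counts, fell by 0.23 over the same interval (SE 0.07, FDR = 0.00838). In the blocked fit the ZFP36 row rose by 0.14 at 2 h (FDR = 0.0353) and fell by 0.16 at 8 h (FDR = 0.00238), and in Holstein alone it rose by 0.26 (FDR = 9.51e-04) and fell by 0.12 (FDR = 0.0442), each without reaching the fold limit. The Holstein value at 2 h, 0.26 without the block (FDR = 0.0732), also passed with DESeq2's Wald test (FDR = 0.0335) and on rows with a symbol only (FDR = 0.038).

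By the likelihood-ratio test without a block, RC3H1 and ELAVL1 were not called in any of the 12 comparisons. The log2 fold change of RC3H1 was 0.18 at 2 h (SE 0.12, FDR = 0.306) and 0.22 at 8 h (SE 0.11, FDR = 0.188). It was higher than at 0 h in all 8 animals at 2 h, by 0.01 to 0.26 on the log2 scale, a direction that 17.1% of the rows tested had in all animals. Blocked on the animal, it rose by 0.18 at 2 h (FDR = 0.0014) and by 0.22 at 8 h (FDR = 0.00258), and in Holstein alone by 0.18 (FDR = 0.0255) and 0.22 (FDR = 0.0134). Without a block, RC3H1 also passed at 8 h in the fit of all 24 samples (0.227, FDR = 0.0437) and, in Holstein, with DESeq2's Wald test (0.214, FDR = 0.0245). The interval without a symbol next to RC3H1, from 56734281 to 56755281, rose by 0.37 at 2 h (SE 0.12, FDR = 0.0102). ELAVL1 stayed between 54.9 and 79.1 CPM in Angus and between 50.2 and 57 CPM in Holstein over the 3 hours. Its log2 fold change was 0.05 at 2 h (95% interval -0.14 to 0.25, FDR = 0.815) and 0.01 at 8 h (95% interval -0.16 to 0.17, FDR = 0.978), and no alternative called it after LPS. With the animal as a block, 6 of the 7 genes had an FDR under 0.05 at 2 h and 6 at 8 h, against 47.5% and 40.7% of all rows under that fit. In Holstein these were 5 at 2 h and 6 at 8 h, against 35.8% and 35.2% of rows.

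Between 8 h and 2 h, 2 of the 7 genes were past the threshold (ZC3H12A and ZFP36L2) and 4 had an FDR under 0.05, against 2.76% and 23.8% of 20291 rows. The changes within single breeds were counted against 0 h. At 2 h in Angus, 1 gene was past the threshold and 3 had an FDR under 0.05, against 2.98% and 13.8% of rows. In Holstein at 2 h these were 2 and 3 genes, against 3.14% and 17.2% of rows. At 8 h the counts were 1 and 1 in Angus, against 0.863% and 3.9% of rows, and 1 and 2 in Holstein, against 2.51% and 14.7% of rows.

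**Figure D3:**
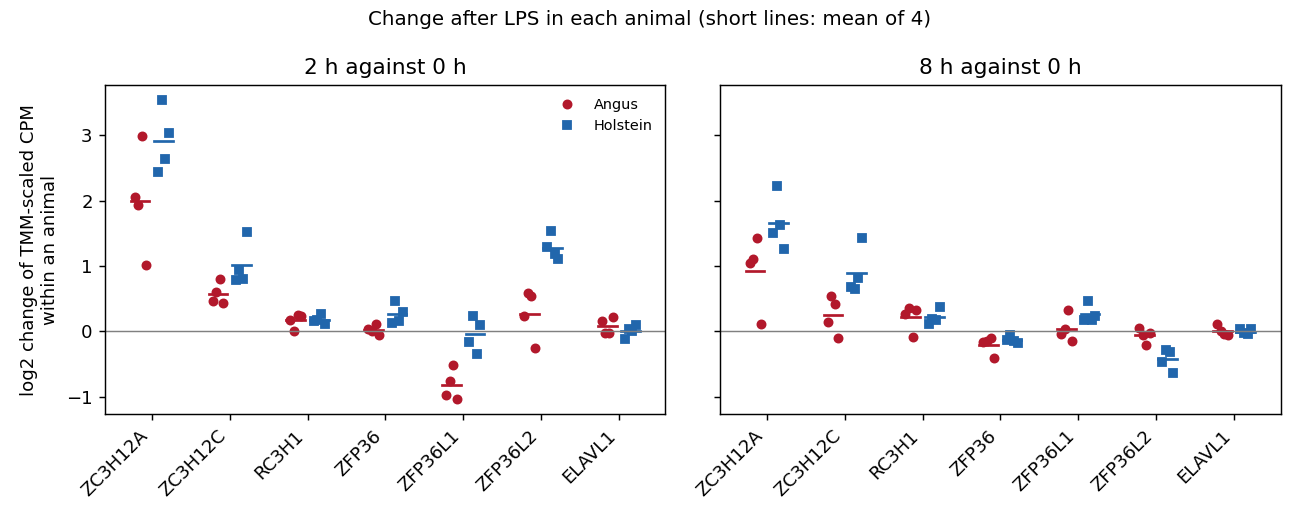
Log2 change of TMM-scaled CPM within each animal (y axis) for the 7 genes (x axis) at 2 h and 8 h against 0 h, with points for animals and short lines for the mean of 4 animals per breed. At 2 h the Holstein changes of ZFP36L2 (1.10 to 1.53) and ZFP36L1 (-0.35 to 0.23) all lay above the Angus changes (-0.26 to 0.58 and -1.04 to -0.52), and those of ZC3H12A overlapped between breeds.

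The comparison of Holstein with Angus at each hour asks whether the breeds differ in these genes at rest and during the response. At 0 h, none of the 7 genes differed by edgeR's likelihood-ratio test, against 13.8% of 20385 rows with an FDR under 0.05 and 3.81% past the threshold, although DESeq2 called 1 (ELAVL1, FDR = 0.0472). At 2 h, 2 genes differed (ZFP36L2 and ZFP36L1) and none was past the threshold, against 20.1% and 4.45% of 20184 rows. At 8 h, 1 gene differed (ZC3H12A) and none was past the threshold, against 16.5% and 3.24% of 20679 rows. The summed fibroblast markers did not overlap between the breeds at 0 h (53500 to 69800 CPM in Angus, 73600 to 124000 in Holstein) or at 8 h (37600 to 59300 and 61200 to 79500 CPM), and at 2 h they did (44300 to 88600 and 70200 to 86500 CPM). These sums include COL1A1, at 5380 to 48900 CPM over the 24 samples. Its reads were counted in another way in Angus animal 4 and Holstein animals 2 and 4 at 0 h. The same held for Angus animal 3 at 2 h, and the effect on the sums was not tested. A summed level of 3 smooth muscle and pericyte markers also separated the breeds, with 17.3 to 20 CPM for Angus and 22.9 to 32.9 CPM for Holstein at 0 h, 20.9 to 24.2 and 29.2 to 44.2 CPM at 2 h, and 16.9 to 20.7 and 26.3 to 46.7 CPM at 8 h. That sum was mostly MYH11 (15.7 to 43.7 CPM), with DES at most 1.46 CPM and RGS5 at most 3.61 CPM. The part of these sums and of the keratinocyte markers in the breed differences was not tested, and in whole cultures fewer cells of a type cannot be told apart from less RNA per cell.

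ZFP36L2 was higher in Holstein at 2 h by a log2 fold change of 0.92 (SE 0.16, FDR = 5.90e-07, 1.89-fold), with no overlap between the breeds, which also held for 23.9% of all rows at that hour. At 0 h the difference was -0.05 (SE 0.18, FDR = 0.895) and at 8 h -0.46 (SE 0.17, FDR = 0.0539). Without Angus animal 3 the difference at 8 h was -0.58 (FDR = 0.00142), and it also passed with DESeq2's Wald test (FDR = 0.0332) and on rows with a symbol only (FDR = 0.0449). ZFP36L1 was higher in Holstein at 2 h by 0.68 (SE 0.21, FDR = 0.0101), with Angus animal 3 (60.6 CPM) above Holstein animal 3 (57.9 CPM). Without Holstein animal 2 this difference was 0.55 (FDR = 0.0618). At 0 h it was -0.08 (FDR = 0.763) and at 8 h 0.13 (FDR = 0.7).

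ZC3H12A at 2 h averaged 47.1 ± 17.1 CPM in Holstein and 23.3 ± 15.1 CPM in Angus (SD, n = 4 each), a log2 difference of 1.01 (SE 0.43) that did not pass (FDR = 0.0859) and passed in the fit of all 24 samples (1.02, FDR = 0.0207). The 2 h sample of Angus animal 3 decided this value, since without it the difference was 1.55 (FDR = 1.38e-04) and past the threshold. This sample is the only one of 2 h among the 4 counted in another way, so leaving out the 4 gave the same result. It held 20.53% of its counts in rows without a symbol, against 12.28% to 15.45% in the other samples. Animal and counting cannot be told apart at 2 h. At 8 h, means of 19.1 ± 4.32 CPM and 10.1 ± 3.97 CPM gave a difference of 0.92 (SE 0.29, FDR = 0.016). Angus animal 3 (15.2 CPM) was again above Holstein animal 3 (14.4 CPM), and without it the difference was 1.17 (FDR = 1.47e-04). The call at 8 h was lost without Angus animal 1 (0.946, FDR = 0.0523), Angus animal 2 (0.854, FDR = 0.0686) or Holstein animal 2 (0.764, FDR = 0.0876), with the quasi-likelihood F test (FDR = 0.0602) and in the fit of all 24 samples (FDR = 0.0514). The difference at 0 h was 0.26 (SE 0.21, FDR = 0.439).

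ELAVL1 was lower in Holstein at each hour, by values that did not pass the test, -0.21 (FDR = 0.155), -0.32 (FDR = 0.0584) and -0.23 (FDR = 0.11). DESeq2's Wald test called it at all 3 hours (FDR = 0.0472, 0.0254 and 0.0318), and at 2 h it was also called in the fit of all 24 samples (-0.307, FDR = 0.00922) and on rows with a symbol only (-0.301, FDR = 0.0494). The ranges of the breeds did not overlap at 0 h (51.1 to 55.9 against 56.2 to 67.7 CPM) or at 2 h (51.6 to 54.4 against 54.9 to 79.1 CPM), and at 8 h they did, as for the other 6 genes, where 20.5% of all rows did not overlap. Without Angus animal 3, the lowest of its breed at every hour, ELAVL1 was lower in Holstein at 0 h (-0.26, FDR = 0.0443), 2 h (-0.395, FDR = 0.00214) and 8 h (-0.29, FDR = 0.0104). The 2 h value is also that without the 4 samples counted in another way, since this animal's is the only 2 h sample among them. RC3H1 in Holstein was at 11.6 to 12.3 CPM at 0 h, above the 8.52 to 11.1 CPM of Angus, a log2 difference of 0.28 (SE 0.13, FDR = 0.155). Levels without overlap at 0 h were found in 2 of the 7 genes (RC3H1 and ELAVL1) and in 17.3% of all rows. ZC3H12C and the ZFP36 row differed between breeds by -0.30 to 0.31 and by -0.13 to 0.09 over the 3 hours, and no FDR was under 0.2.

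**Figure D4:**
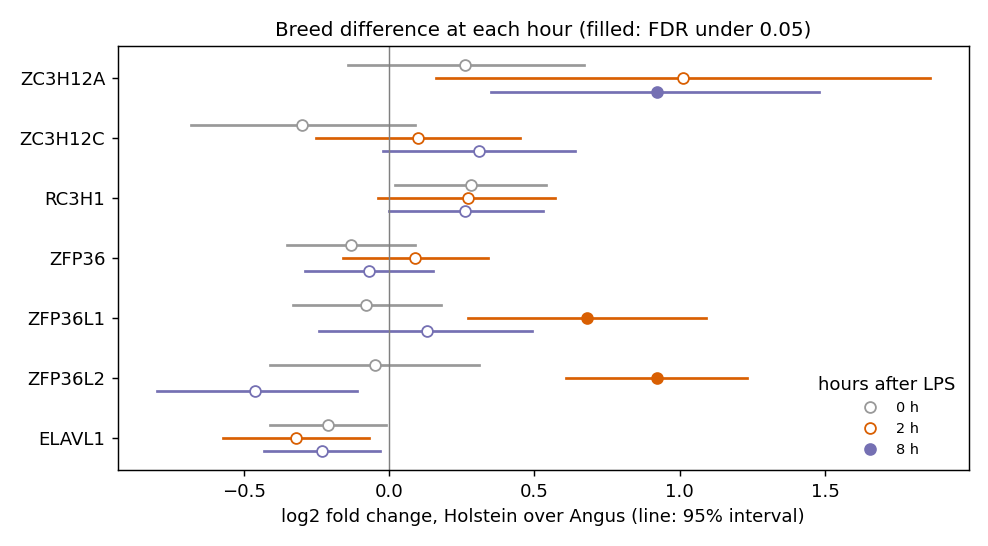
Log2 fold change of Holstein over Angus (x axis, points with 95% intervals) for the 7 genes (y axis) at 0 h, 2 h and 8 h, with filled points where the FDR was under 0.05. Filled points are ZFP36L2 (0.92) and ZFP36L1 (0.68) at 2 h and ZC3H12A (0.92) at 8 h, and no point is filled at 0 h.

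Whether the breeds responded to a different extent was tested with an interaction term. At 2 h, 1 of the 7 genes had an FDR under 0.05 (ZFP36L2) and none was past the threshold, against 0.437% and 0.278% of 20157 rows. ZFP36L2 rose more in Holstein by 0.99 on the log2 scale (SE 0.25, FDR = 0.0165). Blocked on the animal, the interaction was 1.01 (FDR = 1.22e-05) and past the threshold, with the quasi-likelihood F test its FDR was 0.164, and with both it was 0.0198. It was not called without the 4 samples (0.91, FDR = 0.116), nor without Angus animal 1 (0.965, FDR = 0.076) or 4 (0.807, FDR = 0.195) or Holstein animal 1 (0.974, FDR = 0.135), 2 (0.918, FDR = 0.0537) or 3 (0.982, FDR = 0.116). Within animals, the change at 2 h was 0.23, 0.58, 0.54 and -0.26 in Angus and 1.29, 1.53, 1.19 and 1.10 in Holstein. The breeds did not overlap, which held for 3 of the 7 genes (ZFP36L2, ZFP36L1 and ZFP36) and for 9.83% of all rows. LOC100139773, the row inside ZFP36L2, had an interaction of 0.91 (SE 0.44, FDR = 1), and with the animal as a block 0.92 (FDR = 4.72e-04).

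For ZFP36L1 the interaction at 2 h was 0.77 (SE 0.25, FDR = 0.26). In the blocked fit it was 0.78 (FDR = 5.79e-05), and without Angus animal 3 it was 0.89 (FDR = 0.0201). The changes within animals were -0.97, -0.76, -0.52 and -1.04 in Angus and -0.17, 0.23, -0.35 and 0.10 in Holstein, again without overlap, and those of the ZFP36 row were -0.05 to 0.11 in Angus and 0.13 to 0.46 in Holstein. With the block, ZFP36L1 and ZFP36L2 were thus called at 2 h, 2 of 7 against 4.28% of rows. From 2 h to 8 h ZFP36L1 went up by 0.80 to 0.93 within the Angus animals and by 0.14 to 0.53 within the Holstein animals, while ZFP36L2 changed by -0.75 to 0.23 in Angus and by -1.82 to -1.52 in Holstein. These ranges did not overlap, which held for 11.9% of all rows over that interval. The interaction for ZC3H12A was 0.75 (SE 0.52, 95% interval -0.26 to 1.76, FDR = 1) at 2 h and 0.65 (SE 0.36, FDR = 1) at 8 h, and it was not called by any alternative. Changes from 0 h to 8 h that did not overlap between the breeds were those of ZC3H12C (-0.10 to 0.54 in Angus, 0.65 to 1.43 in Holstein) and ZFP36L2 (-0.21 to 0.05 and -0.64 to -0.29), against 7.19% of rows. At 8 h none of the 7 genes had an interaction FDR under 0.05, against 0.137% of 20368 rows and 0.0982% past the threshold. In the blocked fit ZFP36L2 was the single one called at 8 h, with -0.38 (FDR = 0.0202) against 2.59% of rows, and with the quasi-likelihood F test on the same block its FDR was 0.113.

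The rest of the decay pathway was taken from 6 lists of genes. Of 16 CCR4-NOT deadenylases and adaptors tested, 1 was past the threshold at 2 h with the breeds combined, where 2.82% of all rows were. This was BTG2, an antiproliferative adaptor that binds the deadenylase, with a log2 fold change of 1.60 (SE 0.42, FDR = 0.00162). Its level in Angus went from 3.76 to 7.12 CPM at 0 h to 3.19 to 32.3 CPM at 2 h, and in Holstein from 8.05 to 10.1 CPM to 19.8 to 45.9 CPM. The Holstein ranges did not overlap and the Angus ranges did, with 1.19 (SE 0.61, FDR = 0.229) in Angus and 1.80 (SE 0.28, FDR = 9.99e-09) in Holstein. Between 2 h and 8 h BTG2 fell by 1.41 (SE 0.42, FDR = 0.00656). TOB2, an adaptor of the same family, rose in Holstein by 1.27 at 2 h (SE 0.11, FDR = 4.05e-30), from 20 to 23.1 CPM to 46.3 to 57 CPM, and changed by 0.41 (SE 0.17, FDR = 0.0838) in Angus, from 12.9 to 16.3 CPM to 15.5 to 23.7 CPM. TOB2 was higher in Holstein at 2 h by 1.43 (SE 0.16, FDR = 1.98e-16), and its interaction term at that hour was 0.88 (SE 0.19, FDR = 0.00175). At 0 h the Holstein ranges of TOB2 and BTG2 already lay above those of Angus. Levels without overlap between the breeds, in either direction, were found in 17.3% of all rows at 0 h. BTG2 at 2 h and TOB2 in Holstein kept their calls under every alternative.

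None of 12 decapping and 5' to 3' decay genes and none of 12 exosome genes was past the threshold in any of the 12 comparisons. The share of all rows past it was itself only 0.0982% to 4.45%. The median log2 fold change of both lists was 0.03 at 2 h. With the FDR alone, 0 of the decapping genes were called at 2 h, and 1 exosome gene was higher (EXOSC3, 0.35) and 2 lower (DIS3, -0.34, and DIS3L, -0.22), 3 of 12 where 22% of all rows were called. At 2 h, 4 exosome genes were lower in Holstein than in Angus, by 0.37 to 0.73, EXOSC2, EXOSC3, EXOSC8 and the catalytic subunit DIS3, or 4 of 12 where 20.1% of all rows were called. By the same rule 2 of 12 decapping genes were lower in Holstein at 2 h. Of the exosome genes, 1 was lower at 0 h and 3 at 8 h, where 13.8% and 16.5% of all rows were called. No gene of either list had an interaction FDR under 0.05, against 0.437% of all rows at 2 h and 0.137% at 8 h. Of 15 other RNA-binding proteins tested, none was past the threshold after LPS with the breeds combined. Over all rows this share was 2.82% at 2 h and 1.42% at 8 h. At 2 h TIA1, a stress granule protein, fell by 0.70 (SE 0.08, FDR = 4.80e-15), YTHDF2, a reader of methylated adenosine, rose by 0.39 (SE 0.07, FDR = 1.59e-07) and ARID5A, which stabilises IL6 messages, rose by 0.62 (SE 0.21, FDR = 0.0182). At 8 h ZC3HAV1, an antiviral zinc finger protein, rose by 0.53 (SE 0.11, FDR = 2.55e-05). IGF2BP2, an RNA-binding protein of the insulin-like growth factor messages, was higher in Holstein at 0 h by 1.90 (SE 0.44, FDR = 8.41e-04), at 2 h by 1.85 (SE 0.56, FDR = 0.0106) and at 8 h by 1.85 (SE 0.51, FDR = 0.0061). It ranged from 0.548 to 3.1 CPM over the Angus samples and from 3.95 to 9.81 CPM over the Holstein samples, and the call was lost at 0 h without the 4 samples and at 2 h without Holstein animal 4 or with the quasi-likelihood F test.

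Of 16 kinases, proteases and binding partners known to act on these proteins, none was past the threshold in any of the 12 comparisons. Over all rows this share was 0.0982% to 4.45%. By the FDR alone, 4 of these genes were higher and 1 lower at 2 h, 5 of 16 where 22% of all rows were called. MALT1, the protease that cleaves ZC3H12A and RC3H1, rose by 0.73 (SE 0.10, FDR = 8.44e-12), and MAPKAPK2, the kinase that phosphorylates ZFP36, rose by 0.55 (SE 0.09, FDR = 3.99e-09). MAPKAPK3 rose by 0.27 and CARM1 by 0.30, whereas BTRC fell by 0.32. At 8 h, 3 of the 16 were higher and 1 lower by the FDR alone, where 12.8% of all rows were called. MALT1 was still higher by 0.38 (SE 0.10, FDR = 0.00314). DUSP1, the phosphatase that limits p38 signalling and also a member of the target list, fell by 0.50 (SE 0.15, FDR = 0.00825).

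**Figure D5:**
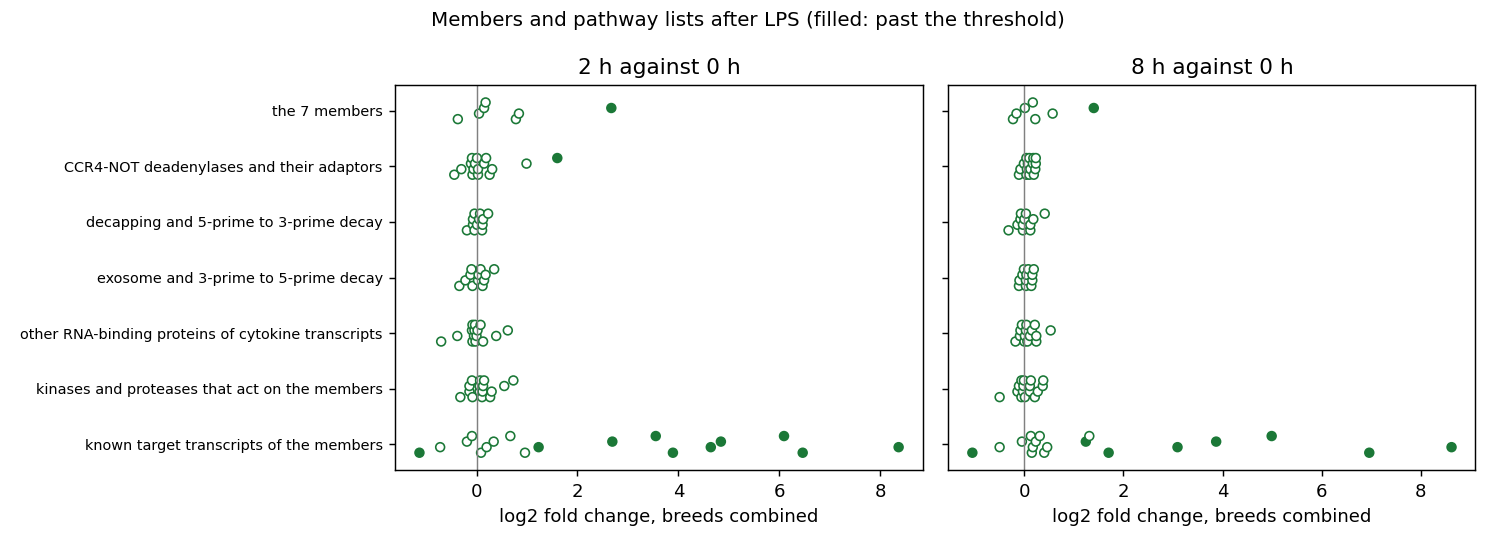
Log2 fold change against 0 h with the breeds combined (x axis) for the 7 genes and the 6 lists (y axis), 1 point per gene tested, at 2 h and 8 h, with filled points past the threshold. At 2 h the filled points are ZC3H12A (2.67), BTG2 (1.60) and, among the target transcripts, 9 that rose (from NFKBID at 1.23 to IL8 at 8.36) and FOS (-1.13), and no point is filled among the decapping, exosome, other RNA-binding and kinase lists.

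The list of known target transcripts held 24 genes, of which 18 were tested with the breeds combined, and 6 (TNF, IL1A, IL1B, CSF2, CSF3 and CCL20) were below the filter at both hours. Within Holstein, TNF at 2 h and IL1A and CCL20 at 8 h passed the filter and rose past the threshold under every alternative. In the blocked fit these rises were 6.68, 3.03 and 12.36, and CCL20 had no counts at 0 h in Holstein. At 2 h, 9 of the 18 rose past the threshold and 1 fell, where 2.82% of all rows were past it. The 6 largest rises were those of IL8 (8.36), IL6 (6.46), CXCL2 (6.09), PTGS2 (4.84), LIF (4.64) and CCL2 (3.89), each with an FDR of 5.05e-11 or lower. The others were NFKBIZ (3.55), IER3 (2.69) and NFKBID (1.23), and FOS fell by 1.13 (SE 0.21, FDR = 2.89e-06). At 8 h 7 of those that rose were past the threshold, IL8, IL6, CXCL2, CCL2, PTGS2, NFKBIZ and IER3, and FOS fell by 1.05, a call lost without the 4 samples or without Holstein animal 4. Over all rows, 1.42% were past the threshold at 8 h. From 2 h to 8 h, 6 of 20 tested fell past the threshold, LIF by 3.32, NFKBIZ by 1.85, PTGS2 by 1.74, IER3 by 1.44, CXCL2 by 1.08 and NFKBID by 1.07. Over this interval 2.76% of all rows were past it. The call of CXCL2 was lost with the animal as a block (-0.97, FDR = 1.39e-08), without the 4 samples and without Angus animal 3, and that of NFKBID with the block (-0.93, FDR = 1.21e-06), in the fit of all 24 samples and without Holstein animal 2 or 4. IL8 and IL6, with the largest rises at 2 h among the 18 tested, had log2 fold changes against 0 h of 8.62 and 6.96 at 8 h. Many of these targets were chosen as known LPS-induced genes, so their direction is not independent evidence.

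Between the breeds, 5 of 20 targets tested at 2 h were higher in Holstein past the threshold, TNF by 2.79 (SE 0.88, FDR = 0.0205), LIF by 2.02, TNFRSF4 by 1.16, IER3 by 1.16 and NFKBID by 1.13. At 8 h these were CCL20 by 3.12 (SE 0.99, FDR = 0.0276), LIF by 2.42, IL8 by 2.19, CCL2 by 1.55 and NFKBIZ by 1.01. Of all rows, 4.45% were past the threshold between breeds at 2 h and 3.24% at 8 h. The call of TNF was lost without Angus animal 1, 2 or 4 or Holstein animal 2 or 4, and that of CCL20 without Angus animal 1 or 2 or Holstein animal 1, 2 or 4. That of NFKBIZ was lost without Angus animal 2 or 4 or Holstein animal 2 and in 4 other settings, of IER3 without Angus animal 4 or Holstein animal 4, of TNFRSF4 without Angus animal 1 or Holstein animal 4, and of NFKBID without Holstein animal 2 or 4. The calls of LIF, IL8 and CCL2 were kept without each animal. With the quasi-likelihood F test those of LIF and TNF at 2 h and of CCL20 at 8 h were lost, and that of CCL20 also in the fit of all 24 samples. IL8 was the single target with an interaction past the threshold, 3.57 at 8 h (SE 0.73, FDR = 0.00276), which was lost without Holstein animal 4, without the 4 samples and with the quasi-likelihood F test. Of all rows, 0.278% had an interaction past the threshold at 2 h and 0.0982% at 8 h.

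The rows with the pattern most like that of ZC3H12A were found by the mean absolute difference over the 24 samples between log2(CPM + 1) values centred on each row's mean. Among 12889 rows with a symbol, these were IER3 (0.27), NFKB1 (0.29) and BIRC3 (0.31), where the median row was at 0.97. NFKB1, a subunit of the transcription factor NF-kB, averaged 13.4, 46.2 and 24.2 CPM in Angus and 14.6, 53.6 and 39.6 CPM in Holstein at 0 h, 2 h and 8 h. BIRC3, an inhibitor of apoptosis, averaged 10.5, 65.7 and 29.7 CPM in Angus and 12.3, 99.3 and 64.8 CPM in Holstein. For ZFP36L2 the most similar row was LOC100139773 (0.21), which lies inside it and can share its reads. The next were FHOD1 (0.22) and C21H14orf80 (0.22), against a median of 0.49. FHOD1 averaged 45.6, 70.6 and 38.9 CPM in Angus and 41.7, 76.5 and 30 CPM in Holstein at 0 h, 2 h and 8 h. C21H14orf80 averaged 3.49, 4.15 and 2.72 CPM in Angus and 3.34, 6.69 and 2.54 CPM in Holstein.

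Ordered by group mean, the level of ZC3H12A was highest in Holstein at 2 h, followed by Angus at 2 h, Holstein at 8 h, Angus at 8 h, Holstein at 0 h and Angus at 0 h, and each pair of neighbours in this order overlapped. For ZFP36L2 the order was Holstein at 2 h (125 ± 14.5 CPM), Angus at 2 h (65.8 ± 10.5), Angus at 0 h (54.5 ± 8.53), Angus at 8 h (52.7 ± 11.6), Holstein at 0 h (52.2 ± 10.9) and Holstein at 8 h (38.3 ± 4.53; SD, n = 4 in each), and the highest group alone stood clear of its neighbour. For ZFP36L1 the order ran from Holstein at 8 h (88.6 ± 13.3 CPM) to Angus at 2 h (44.8 ± 11.4), and all neighbours overlapped. For ZC3H12C it ran from Holstein at 2 h (5.53 ± 0.511 CPM) to Holstein at 0 h (2.77 ± 0.508), with overlap between all neighbours. For ELAVL1 the 3 Angus groups (62.1 to 66.3 CPM) were above the 3 Holstein groups (53 to 53.1 CPM).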

How the data were processed

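The members and the gene lists were chosen with earlier results of these data known. Per the methods of the study, the authors prepared poly(A)-enriched libraries, removed reads that were short, of low quality or rich in uncalled bases, used NextGENe 2.3.4 to align the rest to UMD v3.1, and counted reads per annotated gene. CASAVA 1.7 is named in the submitters' processing notes. The deposited values are raw read counts per row, not normalized, for 59846 rows, of which 32296 are intervals with no gene symbol and held 12.28% to 20.53% of the counts. The deposited coverage signal, the mean read depth per row, served only for the covered bases per count. Rows are whole gene spans on both strands, so exons cannot be separated and overlapping genes share counts. Of the reads, 92.88% to 96.54% were matched.

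From the counts, rows with 1 CPM or more in at least 50% of the samples compared were scaled by TMM and tested with edgeR 4.0.16 (R 4.3.3), by a generalized linear model and its likelihood-ratio test with Benjamini-Hochberg adjustment (FDR). The filter, test and thresholds (FDR under 0.05, fold change of 2 or more, mean above 1 CPM) follow the study. TMM is not named there. There were 12 comparisons, each fitted on its own samples and without an animal block. The genes named are the 7 members in every comparison, list genes past the threshold (at most 6 per list and comparison) and the 3 rows most alike to a member past the threshold. List genes called by the FDR alone and neighbouring rows were named after their values were seen. No sequence or exon annotation of this build was used here.

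The animal number pairs the hours of 1 animal in the labels. After group means were removed, samples of 1 animal at 0 h and 2 h correlated across 20157 rows with a mean r of 0.661 (lowest 0.549), and different animals of a breed with -0.219. At 0 h and 8 h these were 0.618 (lowest 0.53) and -0.205. Once group means are removed, the values of the animals in a group cancel out. The negative value is therefore largely set by the positive one and is not separate evidence of the pairing. Values with the animal as a block are given where they change a call. In each of the 36 same-group pairs the counts differed beyond Poisson noise, at 33 to 461 units of chi-square per degree of freedom. Each animal is 1 sample per hour, and p-values of the breed comparisons measure the spread between animals. The LPS and interaction fits without a block treat the samples of an animal as independent. With the breeds combined, the residual spread of the LPS fits also includes breed differences. In the blocked fits, p-values measure how the changes within animals vary from animal to animal. Alternatives were DESeq2 size factors and the Wald test of DESeq2 1.42.0, no filter or 10 counts as the filter, the quasi-likelihood F test, 1 fit of all 24 samples, the block, leaving out each animal or the 4 samples counted in another way, and CPM without TMM. The quasi-likelihood F test with the block and a fit on rows with a symbol only were added after the data were seen. The fits were tested on simulated counts.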

Additional observations from a re-analysis of the deposited data

Results flagged for a closer look

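Differences between the breeds in their response to LPS were flagged for 2 of the 7 genes, by a test of the difference itself (the interaction of breed and hour, edgeR's likelihood-ratio test). For ZFP36L2 at 2 h the interaction was 0.99 on the log2 scale (FDR = 0.0165). With the animal as a block, ZFP36L1 at 2 h had an interaction of 0.78 (FDR = 5.79e-05) and ZFP36L2 at 8 h one of -0.38 (FDR = 0.0202). Without the block, the FDR of the latter pair was 0.26 and 1. In none of the 42 groups of 4 samples (7 genes by 6 groups) was the highest or lowest sample far enough from the others to pass Dixon's 95% limit, a limit that chance passes in about 1 group of 20.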

How the results depend on the processing

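Under the replicate block for the animal, the number of genes with an FDR under 0.05 was 6 at 2 h and 6 at 8 h with the breeds combined, 5 and 6 in Holstein, and 2 and 1 for the interactions at 2 h and 8 h. Those past the threshold were 0 in Angus at 8 h and 1 for the interaction at 2 h. The quasi-likelihood F test with the block gave 6, 5, 5, 6 and 2 genes by the FDR and 0 and 1 past the threshold in the same order (the interaction at 8 h aside). In Angus at 8 h, the quasi-likelihood F test, the fit of all 24 samples and the fit without the 4 samples counted in another way each gave 0 genes by either rule. For Holstein against Angus at 2 h, the fit of all 24 samples and that without the 4 samples gave 4 genes by the FDR and 1 past the threshold. At 8 h it was 0 with the quasi-likelihood F test, 0 with 24 samples, 3 with DESeq2's Wald test and 2 on rows with a symbol only. DESeq2's Wald test gave 4 genes in Holstein at 8 h and 1 between breeds at 0 h. For the interaction at 2 h, the quasi-likelihood F test and the fit without the 4 samples gave 0 by the FDR, and rows with a symbol only gave 1 past the threshold. In Angus at 2 h the fit without the 4 samples gave 2 past the threshold.

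Leaving out 1 animal at a time moved the counts by the FDR to between 0 and 2 for the interaction at 2 h, 1 and 4 between breeds at 2 h, and 0 and 3 between breeds at 8 h. They reached 1 between breeds at 0 h and 0 in Angus at 8 h. In Angus at 2 h every such fit gave 1 or 2 genes by the FDR, against 3 with all animals. Counts past the threshold went to 1 for the interaction at 2 h, 1 between breeds at 2 h and 8 h, 0 in Angus at 8 h, and 1 from 2 h to 8 h, where ZFP36L2 dropped under the fold limit without Holstein animal 1, 2 or 4. Between breeds at 8 h the count by the FDR was 0 without Angus animal 1, Angus animal 2 or Holstein animal 2 and 3 without Angus animal 3, and at 2 h it was 1 without Holstein animal 2 and 4 without Angus animal 3.

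Reversed signs were confined to uncalled log2 values near 0. ELAVL1 went to 0.002 (DESeq2 size factors and Wald test), 0.001 (no filter), 0.000 (10 counts), 0.016 (symbol rows) and -0.022 to 0.033 (without 1 animal) in Holstein at 2 h. In Holstein at 8 h it went to -0.001 (size factors, no filter, Wald test), -0.003 (10 counts), -0.005 (24 samples), -0.033 (without the 4 samples) and -0.007 to 0.005 (without 1 animal). With the breeds combined at 8 h it was -0.000 with no filter and -0.003 to 0.015 without 1 animal. Its ranges without 1 animal were -0.016 to 0.038 in Angus at 8 h, -0.066 to 0.004 from 2 h to 8 h and -0.041 to 0.013 for the interaction at 8 h. The interaction of RC3H1 at 2 h was -0.008 (size factors), -0.010 (no filter), -0.015 (10 counts) and -0.009 (Wald test), and without 1 animal -0.052 to 0.022, or -0.124 to 0.033 at 8 h. Without the 4 samples, ZFP36 in Angus at 2 h was -0.020, and ZFP36L2 was 0.014 in Angus at 8 h and 0.010 between breeds at 0 h. Without 1 animal, the remaining reversals reached -0.006 for ZFP36 in the interaction at 8 h (up to 0.093) and 0.001 between breeds at 8 h (down to -0.12), 0.056 for ZFP36L1 in Holstein at 2 h (down to -0.14) and -0.038 in Angus at 8 h (up to 0.129), and 0.069 for ZFP36L2 between breeds at 0 h (down to -0.174) and 0.000 in Angus at 8 h (down to -0.075). The causes were not tested.

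Over all rows, the count past the threshold moved by over 1.5 times with the quasi-likelihood F test (Angus at 8 h from 178 to 90, interactions from 56 to 16 and from 20 to 0), with the block (interactions to 126 and 100), without the 4 samples (breeds at 0 h from 777 to 258, interaction at 8 h to 6), and on symbol rows alone (369 of 568 and 403 of 607 at 2 h combined and in Angus, 407 of 638 in Holstein, 367 of 560 from 2 h to 8 h, 28 of 56 for the interaction). Leaving out 1 animal gave 515 to 1120 between breeds at 0 h (515 without Angus animal 4), 446 to 1128 at 8 h against 671 (446 without Angus animal 4, 1128 without Angus animal 3), 33 to 80 for the interaction at 2 h (33 without Angus animal 4, 34 without Holstein animal 1) and 2 to 62 at 8 h (2 without Holstein animal 4, 8 without Angus animal 1, 62 without Angus animal 3). With 4 animals per breed, intervals on single genes were wide. The part of counting noise in the spread of these 7 genes was not tested, and ZC3H12C had 93 counts in its lowest sample.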
